A study of Mus musculus with 8 samples.

Results

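The lung endothelial genes described here are Pecam1, Cdh5, Kdr, Tek, Car4, Ednrb, Plvap, Vwf, Sox17 and Aplnr, 10 of the 23469 genes in the count table. They were chosen by name, as genes of all endothelial cells or of lung capillaries, and found in the table by their Entrez identifiers. Each passed the filter on low counts in every comparison. Lung RNA of C57BL/6 mice was sequenced in 4 groups: wild type mice given PBS (WT-PBS), wild type mice given house dust mite extract (WT-HDM), DDAH1-transgenic mice given PBS (TG-PBS) and DDAH1-transgenic mice given house dust mite extract (TG-HDM). House dust mite extract (HDM) is the allergen of this asthma model. It was instilled into the trachea at 100 µg in 50 µl of PBS, and the control mice received 50 µl of PBS alone. All mice were challenged 3 times per week for 3 weeks and sampled 24 hours after the last challenge. Lungs were taken after a measurement of the airway response to methacholine, when blood and bronchoalveolar lavage were also collected. The transgenic mice carry additional DDAH1, an enzyme that degrades asymmetric dimethylarginine, an inhibitor of nitric oxide synthases. The promoter of the transgene and the age and sex of the mice are not given in the sources used here.

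Each group is represented by 1 RNA pool, made from 4 mice and read as 2 libraries. Every SD given is therefore that of 2 libraries made from the same pooled RNA, and no p-value covers the spread between mice. Total counts lay between 5694928 (TG-HDM replicate 1) and 11929374 (WT-PBS replicate 2). The 45S ribosomal RNA gene Rn45S took 15.0% and 14.8% of them in WT-PBS and 16.7% and 21.5% in WT-HDM. It took 21.4% and 21.8% in TG-PBS and 8.58% and 9.37% in TG-HDM, so that its share differed between the groups. Beyond fits without ribosomal RNA and haemoglobin genes, the part of this difference in the results was not tested. The mouse gene Ddah1 stood at 41.0 ± 9.51 CPM (counts scaled to 1000000 per library, SD, n = 2) in WT-PBS. It had 43.9 ± 1.15 in WT-HDM, 65.4 ± 16.4 in TG-PBS and 34.2 ± 1.08 in TG-HDM, so that it was lower in TG-HDM than in WT-HDM. Neither genotype difference passed the test (edgeR with Benjamini-Hochberg adjustment, adjusted p = 0.358 in PBS-treated and 0.637 in HDM-treated mice). The sequence of the transgene is not given in the sources used here, so that its reads need not be counted at this gene. Xist, transcribed from an inactive X chromosome, had 11.3 to 20.8 CPM in the PBS-treated libraries of both genotypes and 2049 to 3042 CPM in the HDM-treated ones, and the Y-linked Ddx3y had 58.7 to 69.0 CPM in the former and 0.179 to 0.301 CPM in the latter. In every comparison of HDM with PBS, the treatment and whatever this difference in sex-linked genes reflects cannot be told apart.

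Endothelial cells line blood and lymph vessels, and in the lung most of them form the capillary network around the air sacs. They are held together by junction proteins, respond to vascular growth factors through receptor kinases, and control vessel tone and clotting. Lung capillaries contain aerocytes, which are specialized for gas exchange, and general capillary cells, which regulate vessel tone and renew the network. In whole lung RNA, fewer cells of a type and less RNA per cell cannot be told apart. Another 24 genes of endothelial cells were measured in the same lung libraries, among them Flt1, Tie1, Eng and Ptprb. All of them had more than 3 counts in at least 1 library of every group, and together they reached 6695 to 6702 CPM in WT-PBS, 4100 to 4180 in WT-HDM, 7643 to 7658 in TG-PBS and 3585 to 3837 in TG-HDM. Detection at this level does not test whether the 10 genes stand for endothelial cells. Calcrl, with 2852 CPM, and Ptprb, with 1465 CPM, made up much of the sum in WT-PBS. Between TG-HDM and WT-HDM, 12 of the 24 genes had log2 fold changes above 0 and 12 below (median 0.0054), so that the sum does not stand for each gene.

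Promoter sequences were given in RefSeq (GRCm38.p6) for 4 of the 10 genes, Kdr, Tek, Car4 and Ednrb. Those of Kdr and Tek, the receptor kinases that fell together after HDM in the transgenic mice, and of Car4, which did not, are shown with the 250 bases before the start, at chr5:75978456-75978705 (minus strand), chr4:94739039-94739288 (plus strand) and chr11:84957504-84957753 (plus strand). Part or all of the stretches of Kdr and Tek lies inside the gene's span, since the RefSeq span also covers starts farther upstream. Capitals mark matches to short motifs on either strand: those of ETS factors (AGGAAG or CGGAAG), SOX factors (ACAAT), FOX factors (TAAACA) and GATA factors (AGATAA or TGATAA), which share no letters in these stretches.
Kdr: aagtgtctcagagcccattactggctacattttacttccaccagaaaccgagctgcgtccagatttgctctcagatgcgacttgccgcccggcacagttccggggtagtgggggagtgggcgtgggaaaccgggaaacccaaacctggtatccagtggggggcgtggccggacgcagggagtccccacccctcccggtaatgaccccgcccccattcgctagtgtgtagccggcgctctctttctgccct
Tek: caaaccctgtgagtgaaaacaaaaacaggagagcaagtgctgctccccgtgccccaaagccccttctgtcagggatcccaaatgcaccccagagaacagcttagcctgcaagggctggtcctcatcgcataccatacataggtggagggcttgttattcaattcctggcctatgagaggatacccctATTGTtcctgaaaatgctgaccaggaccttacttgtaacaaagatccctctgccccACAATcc
Car4: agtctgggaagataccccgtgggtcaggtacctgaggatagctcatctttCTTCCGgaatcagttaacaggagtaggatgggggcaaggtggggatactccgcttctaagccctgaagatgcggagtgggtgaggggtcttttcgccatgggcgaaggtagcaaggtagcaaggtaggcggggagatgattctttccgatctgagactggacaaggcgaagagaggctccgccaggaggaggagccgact

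The stretch of Tek held 2 SOX matches, which began 63 and 7 bases before the start. That of Car4 held 1 ETS match, which began 200 bases before the start. The stretches of Kdr and Ednrb held none of the 4 motifs. Of 32851 mouse promoter stretches of the same length, 39.2% held an ETS match, 27.7% a SOX match, 12.0% a FOX match and 16.6% a GATA match, so that a single match in 1 of 4 stretches is common.

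Levels were compared between genes per kilobase of transcript. Cdh5 had the highest level in every group, with 256 ± 2.31 CPM per kb in WT-PBS, 176 ± 1.95 in WT-HDM, 292 ± 6.59 in TG-PBS and 117 ± 24.4 in TG-HDM. Pecam1 came next in every group, with 101 ± 0.290 CPM per kb in WT-PBS and 65.7 ± 12.1 in TG-HDM, and Car4 was the third in every group, with 42.1 ± 4.59 and 57.7 ± 12.1 CPM per kb. The step from Cdh5 to Pecam1 was larger than the spread between libraries in each group, but Pecam1 and Car4 overlapped in TG-HDM. The middle of the order, held by Tek, Kdr, Plvap, Ednrb and Vwf, changed between groups. In WT-PBS, Car4 overlapped with Tek and Tek with Kdr, whereas Kdr, Plvap, Ednrb and Vwf followed one another without overlap. In TG-HDM, Plvap lay above Tek, and Tek overlapped with Ednrb, Ednrb with Vwf, and Vwf with Kdr, whereas Kdr lay above Sox17. Aplnr and Sox17 were the lowest in each group, at 13.3 ± 4.04 and 16.4 ± 5.23 CPM per kb in WT-PBS and at 6.16 ± 0.917 and 11.6 ± 0.481 in TG-HDM.

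**Figure D1:**
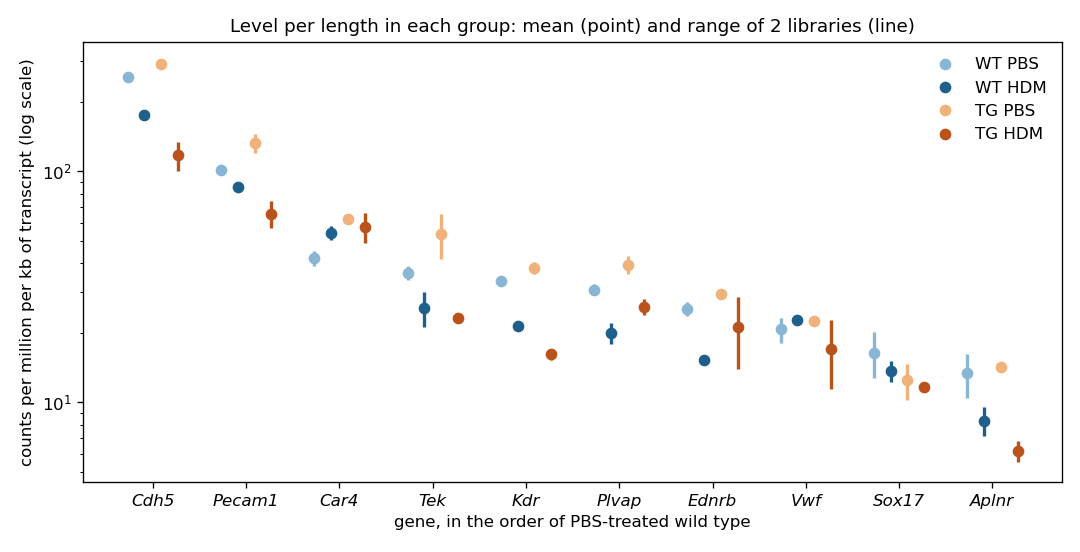
Level of the 10 genes per kilobase of transcript (CPM per kb, logarithmic axis) in the 4 groups, with the mean as a point and the range of the 2 libraries as a line. Cdh5 is at the top and Sox17 and Aplnr are at the bottom in every group. The HDM-treated transgenic libraries of Cdh5, Pecam1, Kdr and Aplnr sit below those of the other groups.

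Cdh5 and Pecam1 are genes of endothelial junctions. Cdh5 (Entrez 12562, chromosome 8 of GRCm38 from 104101613 to 104144504, plus strand) encodes VE-cadherin, the adhesion protein of endothelial adherens junctions. It stood at 1029 and 1016 CPM in the libraries of WT-PBS, 699 and 710 in WT-HDM, 1148 and 1186 in TG-PBS and 399.6 and 538 in TG-HDM. No library of one group fell within the range of another, and the order from high to low was TG-PBS, WT-PBS, WT-HDM and TG-HDM. Pecam1 (Entrez 18613, chromosome 11 from 106654213 to 106715281, minus strand) encodes CD31, an adhesion molecule of endothelial junctions that platelets and leukocytes also carry. It stood at 333 and 332 CPM in WT-PBS, 285 and 279 in WT-HDM, 396 and 475 in TG-PBS and 188 and 244 in TG-HDM. The 4 groups of Pecam1 were separate as well, in the same order.

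The receptor kinases followed the same order of means. Kdr (Entrez 16542, chromosome 5 from 75932827 to 75979072, minus strand) encodes VEGFR2, the main signaling receptor of vascular endothelial growth factor A. Its values were 195 and 203 CPM in WT-PBS, 131 and 123 in WT-HDM, 214 and 240.3 in TG-PBS and 101 and 89.9 in TG-HDM, again with no overlap between any groups. Tek (Entrez 21687, chromosome 4 from 94739086 to 94874976, plus strand) encodes TIE2, the receptor of the angiopoietins. Its values were 182 and 157 CPM in WT-PBS, 139 and 98.9 in WT-HDM, 303 and 193 in TG-PBS and 110.1 and 105 in TG-HDM. The libraries of TG-PBS were farther apart than those of any other group of Tek, and the HDM-treated groups overlapped.

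Genes of the capillary types did not move as one. Car4 (Entrez 12351, chromosome 11 from 84957754 to 84966054, plus strand) encodes carbonic anhydrase 4, a surface enzyme of carbon dioxide exchange and a marker of aerocytes. It had 48.9 and 57.0 CPM in WT-PBS, 72.9 and 63.2 in WT-HDM, 80.9 and 76.1 in TG-PBS and 61.7 and 83.3 in TG-HDM, so that WT-PBS lay below the other groups, which overlapped in part. Ednrb (Entrez 13618, chromosome 14 from 103814615 to 103844508, minus strand) encodes endothelin receptor B, which clears endothelin from the circulation and is another aerocyte marker. It had 112 and 97.3 CPM in WT-PBS, 64.3 and 60.7 in WT-HDM, 116 and 127 in TG-PBS and 117 and 57.5 in TG-HDM. The shallower library, TG-HDM replicate 1, stood among the PBS-treated libraries for Ednrb and the other TG-HDM library below the WT-HDM ones.

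Plvap (Entrez 84094, chromosome 8 from 71497753 to 71511806, minus strand) encodes the protein of the diaphragms that span endothelial fenestrae and caveolae. It had 57.8 and 64.6 CPM in WT-PBS, 43.7 and 35.7 in WT-HDM, 71.4 and 85.6 in TG-PBS and 55.9 and 47.3 in TG-HDM, and all 4 groups were separate, with WT-HDM the lowest. Its span overlaps that of Gtpbp3, so that reads of the overlap can belong to either gene where strand was not used. Aplnr (Entrez 23796, chromosome 2 from 85136360 to 85139923, plus strand) encodes the receptor of apelin and marks general capillary cells. It had 38.8 and 59.9 CPM in WT-PBS, 35.1 and 26.5 in WT-HDM, 54.2 and 51.3 in TG-PBS and 20.4 and 25.2 in TG-HDM. The HDM-treated libraries of Aplnr were all below the PBS-treated ones, and those of TG-HDM were the lowest.

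Vwf and Sox17 mark larger vessels and arteries. Vwf (Entrez 22371, chromosome 6 from 125552948 to 125686679, plus strand) encodes von Willebrand factor, a clotting protein that platelets also hold. It had 159.9 and 206 CPM in WT-PBS, 203 and 199 in WT-HDM, 192 and 204 in TG-PBS and 101 and 201 in TG-HDM, and 7 of the 8 libraries lay within the range from 159.9 to 206 CPM. Megakaryocytes also transcribe Vwf, and 8 platelet and megakaryocyte markers summed to 102 to 144 CPM after PBS and 27.1 to 40.0 CPM after HDM, with 1 of the 6 tested lower after HDM in each genotype. Their part in the values of Vwf was not tested. Sox17 (Entrez 20671, chromosome 1 from 4490928 to 4497426, minus strand) encodes a transcription factor of arterial endothelium. It had 62.8 and 39.7 CPM in WT-PBS, 47.3 and 38.3 in WT-HDM, 45.7 and 32.1 in TG-PBS and 35.2 and 37.3 in TG-HDM, with overlap between most groups.

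**Figure D2:**
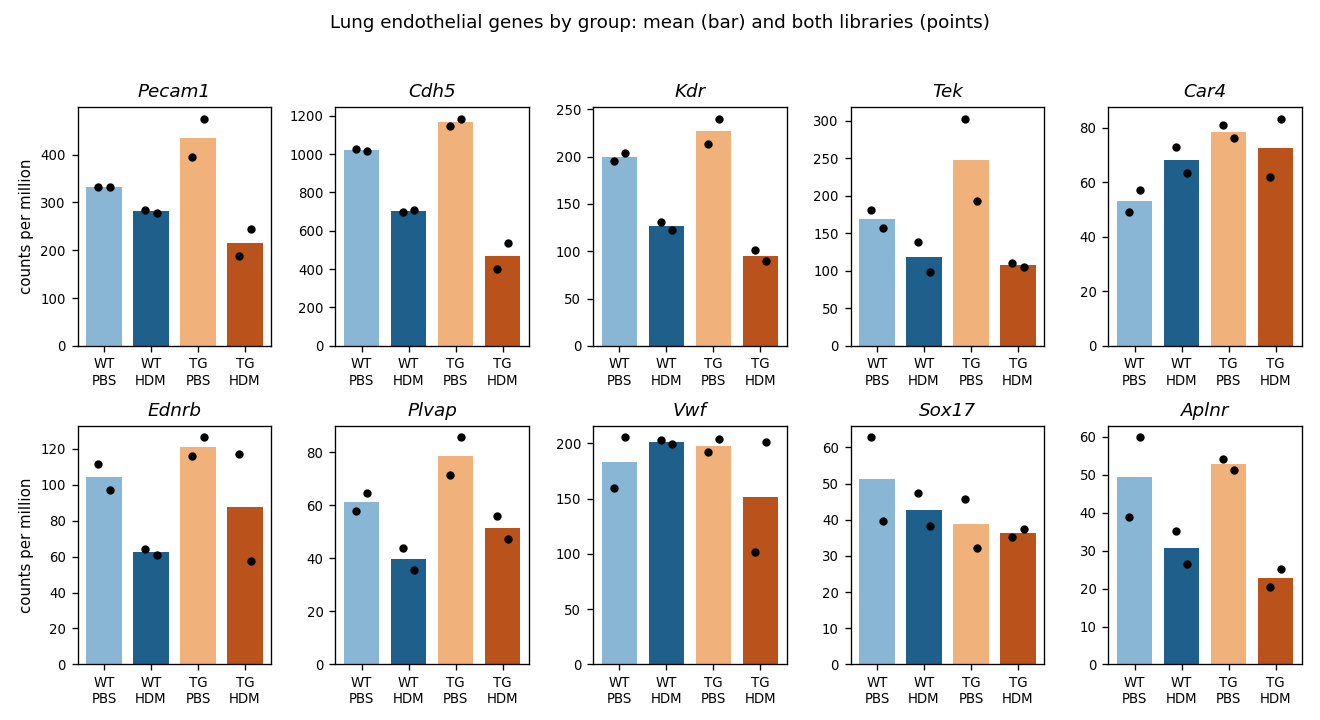
CPM of each gene (vertical axes, each from 0) in the 4 groups, with the group mean as a bar and the 2 libraries as points. Cdh5, Pecam1 and Kdr are highest in PBS-treated transgenic mice and lowest in HDM-treated transgenic mice, whereas Car4, Vwf and Sox17 show no such order.

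HDM was first compared with PBS in wild type mice. After HDM, Cdh5, Kdr and Ednrb fell, and none of the 10 genes rose past the threshold, which was an adjusted p of 0.05 in the quasi-likelihood test of edgeR (Benjamini-Hochberg adjustment over 15123 genes). Among all genes tested, 6.74% passed in either direction, 2.30% with lower and 4.44% with higher values. The log2 fold change was -0.54 for Cdh5 (SE 0.10, adjusted p = 0.0052), -0.65 for Kdr (SE 0.15, adjusted p = 0.0163) and -0.74 for Ednrb (SE 0.19, adjusted p = 0.0300), which is a level 1.45-fold, 1.57-fold and 1.67-fold lower. Without WT-PBS replicate 1 or without WT-PBS replicate 2, only Cdh5 passed, as the adjusted p of Kdr became 0.0534 or 0.108 and that of Ednrb 0.239 or 0.0646. Ednrb also missed the threshold when all 8 libraries shared one fit (adjusted p = 0.137).

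Of the other genes in wild type mice, Aplnr (log2 fold change -0.68, SE 0.29), Plvap (-0.63, SE 0.23), Tek (-0.51, SE 0.18) and Pecam1 (-0.24, SE 0.13) had lower values in both HDM-treated libraries without passing, with adjusted p from 0.128 to 0.322 in the same test. Tek passed without WT-HDM replicate 1 (-0.78, adjusted p = 0.00334), with no filter on low counts (-0.50, adjusted p = 0.0469) and with an offset for gene length and the replicate number as a block (-0.51, adjusted p = 0.0308). The value of Sox17 was -0.26 (SE 0.27). Vwf had 0.14 (SE 0.16) and Car4 0.36 (SE 0.22, adjusted p = 0.388), and Car4 was higher in both HDM-treated libraries. In all, 7 of the 10 genes were lower in both HDM-treated libraries than in both PBS-treated ones, against 24.7% of all genes tested, and 1 was higher, against 25.0%. The median log2 fold change of the 10 genes was -0.52, beside 0.019 for all genes tested.

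The same comparison in transgenic mice gave 5 genes that fell and none that rose, among 13.8% of all 15086 genes tested that passed in either direction, 5.35% with lower and 8.43% with higher values. Cdh5 fell by 1.30 on the log2 scale (SE 0.18, adjusted p = 0.000667, edgeR with Benjamini-Hochberg adjustment), a level 2.46-fold lower, and Kdr fell by 1.23 (SE 0.21, adjusted p = 0.00245), a level 2.34-fold lower. Tek had a log2 fold change of -1.18 (SE 0.24, adjusted p = 0.00659), Aplnr one of -1.19 (SE 0.30, adjusted p = 0.0239) and Pecam1 one of -0.99 (SE 0.20, adjusted p = 0.00625, 1.99-fold lower). These 5 genes include both junction genes and both receptor kinases. Most of these calls were lost when either PBS-treated transgenic library was left out. The log2 fold changes of the 5 genes stayed between -1.53 and -0.83 without any single library, and why the calls were lost was not tested. Without TG-PBS replicate 1 only Cdh5 passed, and the adjusted p of the other 4 genes was 0.0766 for Pecam1, 0.0615 for Kdr, 0.172 for Tek and 0.166 for Aplnr. Without TG-PBS replicate 2 only Tek passed, with 0.0522 for Cdh5, 0.170 for Pecam1, 0.102 for Kdr and 0.166 for Aplnr. The number of all genes past the threshold fell from 2079 to 404 and 277 in these 2 settings.

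The remaining genes in transgenic mice were Plvap (log2 fold change -0.58, SE 0.26), Ednrb (-0.45, SE 0.31), Vwf (-0.37, SE 0.27), Car4 (-0.09, SE 0.25) and Sox17 (-0.08, SE 0.31), with adjusted p from 0.170 to 0.908 by edgeR with Benjamini-Hochberg adjustment. The 2 HDM-treated libraries disagreed for Ednrb and Vwf. Ednrb passed without TG-HDM replicate 1 (-1.07, adjusted p = 0.00397) and Vwf without TG-HDM replicate 2 (-0.95, adjusted p = 0.0034). Plvap passed with an offset for gene length and the replicate number as a block (-0.91, adjusted p = 0.0239). Car4 had -0.73 with an offset for gene length, and 0.09 without TG-HDM replicate 1. In all, 6 of the 10 genes were lower in both HDM-treated libraries, against 28.0% of all genes tested, and 0 were higher in both, against 28.8%. The median of the 10 genes was -0.79 and that of all genes 0.031. With the offset for gene length it was -0.96, and 696 of the genes past the threshold were then higher and 712 lower, in place of 1272 and 807.

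**Figure D3:**
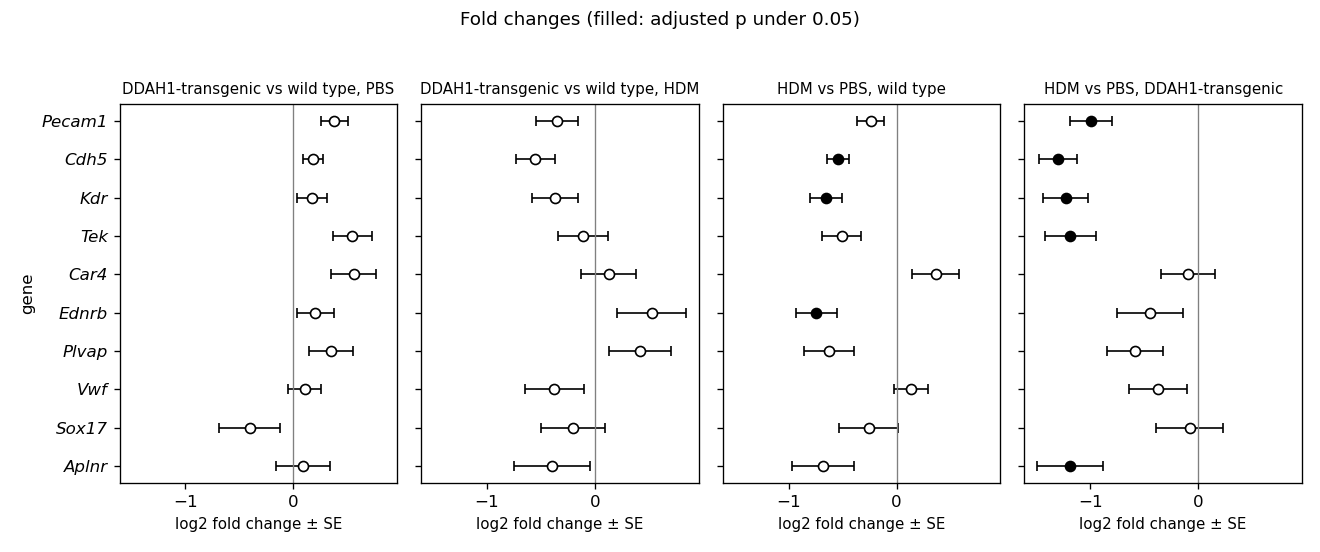
Log2 fold change (horizontal axis) with its SE for each gene in the 4 comparisons, where filled points passed an adjusted p of 0.05. Filled points appear only in the 2 comparisons of HDM with PBS, all of them below 0, and the values of Cdh5, Kdr, Tek and Pecam1 lie farther from 0 in transgenic than in wild type mice, a difference that did not pass its own test.

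Markers of other cell types differed between the same libraries. Of 10 leukocyte markers, 5 were higher and 2 lower after HDM in wild type mice and 6 were higher in transgenic mice. The summed level of this list was 11685 to 12830 CPM in WT-PBS, 9617 to 9718 in WT-HDM, 11875 to 13404 in TG-PBS and 9964 to 13778 in TG-HDM. Of 8 proliferation genes, 5 and 4 were higher, and their sum was 121 to 185 CPM in the PBS-treated and 457 to 546 CPM in the HDM-treated libraries. Of 8 genes of alveolar type 1 cells, 4 were lower in each genotype. The 8 summed to 2985 to 3973 CPM after PBS and 1840.2 to 2302 CPM after HDM. Cav1 and Clic5 made up much of these sums, with 835 and 910 CPM in WT-PBS. Cav1 is expressed by endothelial cells as well, so that this list does not stand for alveolar type 1 cells alone. Of 5 red cell genes measured, 2 were lower in wild type and 3 in transgenic mice, with sums of 3749 to 6859.5 CPM after PBS and 1453 to 2602 CPM after HDM. Of 8 skeletal muscle genes, 8 were higher in wild type mice (median log2 fold change 3.84), with sums of 51.1 to 56.8 CPM in WT-PBS and 265 to 279 CPM in WT-HDM, and 3 were lower in transgenic mice (median -1.21), with sums of 335 to 361 CPM in TG-PBS and 159 to 182 CPM in TG-HDM. Of 8 alveolar type 2 genes, 1 was higher and 1 lower in wild type mice and 2 were lower in transgenic mice. No gene of these lists was at 0 in all libraries. Their part in the results of the endothelial genes was not tested.

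Whether the change with HDM differed between the genotypes was tested as an interaction over all 8 libraries. None of the 10 genes passed by edgeR with Benjamini-Hochberg adjustment, among 1.76% of 15868 genes that did (1.05% with higher and 0.706% with lower values), and 4 of the 10 had an unadjusted p under 0.05, against 14.7% of all genes. The additional change in transgenic mice was -0.78 for Cdh5 (SE 0.20, adjusted p = 0.0576) and -0.78 for Pecam1 (SE 0.23, adjusted p = 0.106) on the log2 scale, -0.70 for Tek (SE 0.31, adjusted p = 0.301) and -0.60 for Kdr (SE 0.25, adjusted p = 0.259). Values for the other genes ran from -0.53 (Aplnr) to 0.26 (Ednrb), and that of Plvap, 0.02, was -0.19 with an offset for gene length. Cdh5 lay next to the threshold and passed in each of the 7 other settings of all 8 libraries, with adjusted p from 0.00706 with no filter on low counts to 0.0468 without ribosomal RNA and haemoglobin genes, and without TG-HDM replicate 2 (0.000941). Pecam1 passed with DESeq2 (0.0292), with no filter (0.0400) and without TG-HDM replicate 2 (0.0121). Vwf also passed without TG-HDM replicate 2 (-1.11, adjusted p = 0.018, in place of -0.52). By the same test, 7 of 8 skeletal muscle genes (median -5.00) and 2 of 8 alveolar type 2 genes were lower and 2 of 10 leukocyte genes were higher, and their part in the values of the endothelial genes was not tested. Among all genes, 167 were higher and 112 lower by the interaction, and 79 and 134 with the offset for gene length.

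In PBS-treated mice, none of the 10 genes differed between transgenic and wild type mice past the threshold, among 0.657% of all 14926 genes that did (0.281% higher and 0.375% lower). Cdh5, Pecam1, Kdr, Tek, Car4, Ednrb and Plvap were higher in both transgenic libraries, 7 of the 10 genes against 20.0% of all genes tested, and none was lower in both, against 20.4%. The log2 fold changes were 0.56 for Car4 (SE 0.21), 0.54 for Tek (SE 0.18), 0.38 for Pecam1 (SE 0.13), 0.35 for Plvap (SE 0.20), 0.20 for Ednrb (SE 0.17), 0.18 for Cdh5 (SE 0.09) and 0.18 for Kdr (SE 0.14), with adjusted p from 0.247 to 0.751 in edgeR with Benjamini-Hochberg adjustment. Sox17 was the only gene with a negative value, -0.41 (SE 0.28), and its groups overlapped. The median was 0.19, beside 0.0008 for all genes, and 3 of the 10 genes had an unadjusted p under 0.05, against 9.98% of all genes. DESeq2 called none of the 10 genes, and Tek passed with no filter on low counts (adjusted p = 0.0266). Pecam1 passed without TG-PBS replicate 1 (0.52, adjusted p = 0.0252) and Tek without TG-PBS replicate 2 (0.84, adjusted p = 0.000211).

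Genes of other cell types and tissues also differed between the PBS-treated pools. The 8 skeletal muscle genes summed to 51.1 to 56.8 CPM in WT-PBS and 335 to 361 CPM in TG-PBS, and 6 of them were higher in the transgenic mice. The heart muscle genes summed to 324 to 378 and 164 to 201 CPM, with 1 of 8 lower, and the red cell genes to 3749 to 4304 and 6248 to 6859.5 CPM, with 2 of 5 higher. Alveolar type 1 genes had values above 0 in 8 of 8 cases (median log2 fold change 0.31, 1 called higher), with sums of 2985 to 3069 CPM in WT-PBS and 3832 to 3973 CPM in TG-PBS. Cav1, which endothelial cells also express, had 835 CPM in WT-PBS and 1069 CPM in TG-PBS within these sums. Alveolar type 2 genes had values above 0 in 7 of 8 cases (median 0.29, 1 called higher), and leukocyte genes had values below 0 in 8 of 10 cases (median -0.32, 2 called lower). Their part in the values of the endothelial genes was not tested. With an offset for gene length, 62 genes in all were higher and 53 lower in PBS-treated transgenic mice, in place of 42 and 56.

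In HDM-treated mice, none of the 10 genes passed between the genotypes either, among 2.44% of all 15191 genes tested that did (1.84% higher and 0.599% lower). By edgeR, 1 of the 10 genes had an unadjusted p under 0.05, against 16.2% of all genes. Cdh5 had the lowest value, a log2 fold change of -0.55 (SE 0.18, adjusted p = 0.149, edgeR with Benjamini-Hochberg adjustment), and was lower in both transgenic libraries. It passed with DESeq2 (adjusted p = 0.0490), with no filter on low counts (0.0456) and with all 8 libraries in one fit (0.0212). Aplnr (-0.40), Kdr (-0.37), Pecam1 (-0.35) and Sox17 (-0.20) were lower in both libraries as well, with SE from 0.19 to 0.35, which makes 5 of the 10 genes against 25.0% of all genes. Plvap (0.42, SE 0.29) was higher in both, 1 of 10 against 23.2%. Vwf (-0.38, SE 0.27), Tek (-0.11, SE 0.23), Car4 (0.13, SE 0.25) and Ednrb (0.52, SE 0.32) overlapped. Tek and Car4 changed sign with an offset for gene length, to 0.0047 and -0.26. The median was -0.27, beside 0.010 for all genes. Without TG-HDM replicate 2, Cdh5 (-0.77), Vwf (-0.94) and Ednrb (0.96) passed, with adjusted p of 0.000523, 0.00189 and 0.00833. Of all genes, 279 were higher and 91 lower, and 83 and 74 with the offset for gene length. Each group enters 2 of the 4 comparisons of pairs, so that values of comparisons that share a group are not independent.

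The ligands and partner receptors of these genes were measured in the same libraries. Of 18 listed, 16 were tested. After HDM 4 were lower and none higher in wild type mice (median log2 fold change -0.28), and 7 were lower and none higher in transgenic mice, with a median of -0.78. Among all genes tested, 2.30% were lower and 4.44% higher in wild type mice, and 5.35% and 8.43% in transgenic mice. Apela, a ligand of the apelin receptor, had no count in any library, and Edn2 had 3 counts or fewer in both libraries of 3 groups.

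On the side of vascular growth factor, Vegfa, the ligand of Kdr, had 467 ± 32.8 CPM in WT-PBS, 245 ± 13.5 in WT-HDM, 480.4 ± 66.5 in TG-PBS and 277 ± 0.0277 in TG-HDM. It fell in both genotypes, with log2 fold changes of -0.93 (SE 0.13, adjusted p = 0.000402) and -0.77 (SE 0.18, adjusted p = 0.0159) by edgeR with Benjamini-Hochberg adjustment. The call in transgenic mice was lost without TG-PBS replicate 1 (0.102) or replicate 2 (0.273). Flt1, the decoy receptor that binds the same ligand, had 213 ± 12.0 CPM in WT-PBS, 166 ± 1.32 in WT-HDM, 266 ± 15.4 in TG-PBS and 99.5 ± 5.35 in TG-HDM. It fell in transgenic mice (-1.40, SE 0.20, adjusted p = 0.000918, and 0.0631 without TG-PBS replicate 2), had -0.37 (SE 0.14, adjusted p = 0.168) in wild type mice, and the difference between the genotypes passed (-1.06, SE 0.24, adjusted p = 0.0254), a call that was lost without 6 of the 8 libraries (without any WT-PBS, WT-HDM or TG-PBS library, 0.0546 to 0.151) and with the offset for gene length (0.0977).

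On the side of the angiopoietins, Angpt1, the activating ligand of Tek, fell in wild type mice (-1.24, SE 0.24, adjusted p = 0.00532, edgeR with Benjamini-Hochberg adjustment), from 68.4 ± 7.72 to 29.1 ± 1.26 CPM. In transgenic mice it had 72.1 ± 9.80 and 48.0 ± 17.7 CPM and a log2 fold change of -0.56 (SE 0.31, adjusted p = 0.269). It passed there without TG-HDM replicate 1 (-1.02, adjusted p = 0.0274), and the difference between the genotypes was 0.64 (adjusted p = 0.476). Angpt2, the context-dependent antagonist, had -0.35 (SE 0.45) and -0.99 (SE 0.58) at 6.37 to 12.9 CPM and passed in neither. Tie1, the partner receptor of Tek, fell in transgenic mice (-1.35, SE 0.32, adjusted p = 0.0164), a call lost without either TG-PBS library (0.152 and 0.145), and had -0.16 (SE 0.23) in wild type mice.

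On the side of endothelin, Edn1 (endothelin 1, a ligand of Ednrb) had 54.6 ± 12.0 CPM in WT-PBS, 19.3 ± 5.87 in WT-HDM, 76.7 ± 1.21 in TG-PBS and 41.8 ± 2.08 in TG-HDM. It fell in wild type mice by 1.51 on the log2 scale (SE 0.30, adjusted p = 0.00763, and 0.0803 without WT-PBS replicate 2) and in transgenic mice by 0.85 (SE 0.26, adjusted p = 0.0482), by edgeR with Benjamini-Hochberg adjustment. The second call was lost without TG-PBS replicate 1 (0.223), TG-PBS replicate 2 (0.287) or TG-HDM replicate 2 (0.0657). Ece1, the enzyme that makes active endothelin, fell in both genotypes as well (-0.47, adjusted p = 0.0459, and -0.95, adjusted p = 0.00411), and these calls were lost without WT-PBS replicate 2 (0.430) and with all 8 libraries in one fit (0.0972), and without TG-PBS replicate 1 (0.0663) and without TG-PBS replicate 2 (0.145). Ednra, the other endothelin receptor, had -0.15 (SE 0.22) and -0.70 (SE 0.25, adjusted p = 0.0802), and passed in transgenic mice with DESeq2 (0.0376), with all 8 libraries in one fit (0.0400) and without TG-HDM replicate 2 (0.0433). Edn3 had -0.68 (SE 0.49) and -0.61 (SE 0.52).

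Apln, the ligand of Aplnr and a gene of aerocytes on the X chromosome, had 30.6 ± 1.89 CPM in WT-PBS, 26.4 ± 2.98 in WT-HDM, 25.9 ± 4.91 in TG-PBS and 14.7 ± 0.783 in TG-HDM. Its log2 fold changes with HDM were -0.21 (SE 0.29) and -0.79 (SE 0.38, adjusted p = 0.207, edgeR with Benjamini-Hochberg adjustment). Sox7 and Sox18, the other transcription factors of the family of Sox17, were at 127 ± 2.68 and 44.2 ± 11.2 CPM in WT-PBS. Sox7 fell in both genotypes (-0.95, SE 0.18, adjusted p = 0.00576, and -0.91, SE 0.26, adjusted p = 0.0371), and the second call was lost without TG-PBS replicate 1 (0.238), TG-PBS replicate 2 (0.229) or TG-HDM replicate 1 (0.0915). Sox18 had -0.21 (SE 0.27) and -0.45 (SE 0.34), and passed in neither.

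Lists of other endothelial genes described how far the 10 genes stood for their cell types. Across 6 such lists together (72 genes without the 10), 19 genes were lower and 1 was higher after HDM in wild type mice (median log2 fold change -0.42), and 26 were lower and 1 was higher in transgenic mice, with a median of -0.55. Among all genes tested, 2.30% were lower and 4.44% higher in wild type mice, and 5.35% and 8.43% in transgenic mice. The counts of the single lists below are to be read beside these shares. Between the genotypes, the median of the 72 genes was 0.13 in PBS-treated mice, beside 0.19 for the 10 genes. In HDM-treated mice it was 0.073, beside -0.27 for the 10 genes. By the interaction it was -0.078, beside -0.52, and 2 of the 72 genes were lower and 0 higher, against 0.706% and 1.05% of all genes. None of the 72 genes passed between the genotypes in PBS-treated mice by edgeR. In HDM-treated transgenic mice 1, Tmem100, was higher by edgeR (0.94, SE 0.20, adjusted p = 0.0346), among 1.84% of all genes. That call was lost without WT-HDM replicate 1 (0.379), without WT-HDM replicate 2 (0.394) and with the offset for gene length (0.147).

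Genes shared by all endothelial cells were lower in 7 of 24 cases in wild type and in 12 of 24 in transgenic mice, and higher in none. Calcrl, the receptor of adrenomedullin, fell by 0.67 (SE 0.08, adjusted p = 0.00015) and by 1.16 (SE 0.14, adjusted p = 0.000283) on the log2 scale, by edgeR with Benjamini-Hochberg adjustment. Ptprb, the phosphatase of VE-cadherin and TIE2, fell by 0.97 (SE 0.10) and by 1.30 (SE 0.15), from 1465 ± 46.8 to 746 ± 36.6 CPM in wild type and from 1668 ± 73.9 to 669 ± 58.6 CPM in transgenic mice. Eng, a co-receptor of transforming growth factor beta, fell by 0.93 and by 1.22, and the second call was lost without TG-PBS replicate 1 (0.0592) or replicate 2 (0.107). The X-linked Tspan7 fell by 0.92 and by 0.86, and the second call was lost without either TG-PBS library (0.159 and 0.136). Nos3, the endothelial nitric oxide synthase, which was named after its values had been seen, had 6.49 to 12.3 CPM over the 8 libraries and passed in no comparison.

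The capillary lists were lower in part. In the same libraries 4 of 8 genes listed for alveolar type 1 cells, with Cav1 in that list, were lower in each genotype. The part of other lung cells in the values of the capillary lists was not tested. Of 10 aerocyte genes, 2 were lower in wild type mice, Cyp4b1 (-0.99, adjusted p = 0.000535) and Emp2 (-0.49, adjusted p = 0.0293), and 5 in transgenic mice, among them Itga3 (-1.18, SE 0.21, adjusted p = 0.00347) and Nrp1 (-0.61, SE 0.18, adjusted p = 0.0388, edgeR with Benjamini-Hochberg adjustment), and these 2 calls were lost without TG-PBS replicate 1 (0.0777 and 0.232) or replicate 2 (0.112 and 0.301). The call of Emp2 in wild type mice was lost without WT-PBS replicate 2 (0.299) and with all 8 libraries in one fit (0.0539). Itga3, an integrin subunit that binds laminin, had 0.13 (SE 0.16) in wild type mice, and the difference between the genotypes passed (-1.33, SE 0.27, adjusted p = 0.0113), but not without WT-PBS replicate 1 or 2, WT-HDM replicate 2 or TG-PBS replicate 2 (0.0599 to 0.0679). Of 10 general capillary genes, 5 were lower in each genotype. Cd93, a surface lectin, fell by 0.73 in wild type and by 0.87 in transgenic mice, and Hpgd, the prostaglandin-degrading enzyme, fell by 1.01 and by 0.62. In transgenic mice these calls were lost without TG-PBS replicate 1 (0.0734 for Cd93 and 0.246 for Hpgd) or replicate 2 (0.154 and 0.287). Ptgs1, the constitutive cyclooxygenase, was the single gene of the list that rose, in wild type mice (1.23, SE 0.17, adjusted p = 0.000443), from 60.3 ± 1.49 to 142 ± 3.47 CPM, and it had 0.30 (SE 0.24) in transgenic mice.

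Arterial genes were lower in 3 of 10 cases in wild type mice, Ltbp4, Efnb2 and Hey1, and in 2 of 10 in transgenic mice, Ltbp4 and Efnb2. Ltbp4, a matrix protein that binds latent transforming growth factor beta, fell by 1.35 (SE 0.15, adjusted p = 6.3e-05) and by 1.69 (SE 0.20, adjusted p = 0.00028), by edgeR with Benjamini-Hochberg adjustment. Without single libraries, the call of Efnb2 was lost in wild type mice without WT-PBS replicate 2 (0.198) or WT-HDM replicate 2 (0.0687) and in transgenic mice without TG-PBS replicate 2 (0.0974), and that of Hey1 was lost without WT-PBS replicate 1 (0.225) or replicate 2 (0.0789). Of 10 venous genes, Slc6a2 fell in wild type mice (-1.41, SE 0.20, adjusted p = 0.000535), and Bst1, which leukocytes also express, rose in transgenic mice (2.41, SE 0.39, adjusted p = 0.00199), a call lost without TG-PBS replicate 1 (0.0604) or replicate 2 (0.0949). Of 8 lymphatic genes, Lyve1, the hyaluronan receptor, fell in both genotypes (-0.79 and -1.44), and Flt4, the receptor of vascular growth factor C, in transgenic mice (-1.33, adjusted p = 0.0112). The calls in transgenic mice were lost without TG-PBS replicate 2 (0.0559 and 0.156), and that of Flt4 also without TG-PBS replicate 1 (0.0918).

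Of 10 genes of activated endothelium, Thbd, the anticoagulant receptor thrombomodulin, and Edn1 fell in both genotypes. Thbd had log2 fold changes of -0.89 (SE 0.12, adjusted p = 0.000406) and -0.89 (SE 0.19, adjusted p = 0.00858, edgeR with Benjamini-Hochberg adjustment), and the latter call was lost without TG-PBS replicate 1 (0.114) or replicate 2 (0.163). Procr, the endothelial receptor of protein C, rose in transgenic mice (3.20, SE 0.68, adjusted p = 0.00927, and 0.0889 without TG-PBS replicate 1), from 1.98 ± 1.53 to 17.9 ± 6.42 CPM, and had 1.98 (SE 0.68, adjusted p = 0.111) in wild type mice. The other 7 genes, among them the adhesion molecules of leukocyte capture, did not pass in either genotype.

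**Figure D4:**
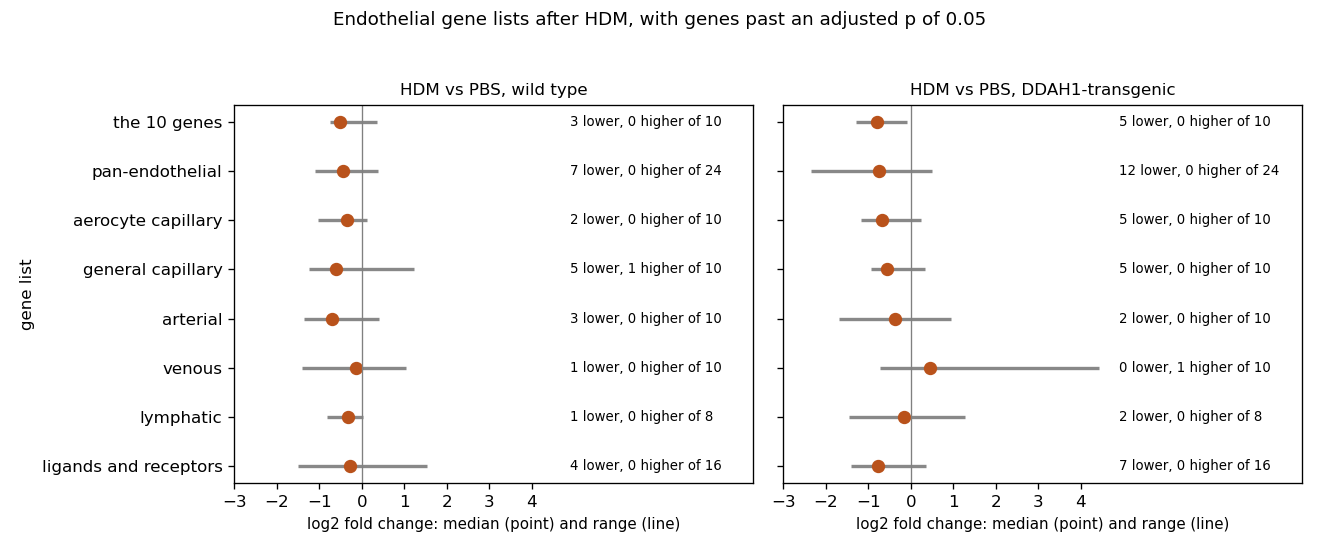
Log2 fold change with HDM (horizontal axis) of the endothelial gene lists, without that of activated endothelium, in wild type (left) and transgenic mice (right), with the median as a point, the range over the tested genes as a line, and the number of genes past an adjusted p of 0.05. Medians of the lists drawn lie below 0 except for the venous one in transgenic mice, where the median is 0.44.

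Genes with the pattern most like that of Pecam1, Cdh5, Kdr and Tek were sought among 11883 genes with a mean of at least 50 counts, by Pearson's r of log2 CPM with the mean of these 4 genes over the 8 libraries. The 5 closest were Epas1 (r = 0.992), Pard3b (0.991), Tmem63b (0.990), Bmpr2 (0.988) and Ankrd33b (0.986). The 8 points share their library, its depth and the 4 pools, so that these values describe the libraries and carry no test. Epas1, which encodes the oxygen-regulated transcription factor HIF-2alpha, stood at 3520 and 3602 CPM in WT-PBS, 1987 and 1931 in WT-HDM, 4418 and 4669.9 in TG-PBS and 1333 and 1435 in TG-HDM. Bmpr2, a receptor of bone morphogenetic proteins, stood at 2322 and 2346, 1478 and 1404, 2699 and 2708, and 1078 and 1278 CPM in the same groups. Both had 4 separate groups in the order of Cdh5, which their choice by likeness to a profile that holds Cdh5 made likely. In PBS-treated mice, Epas1 was higher in transgenic than in wild type mice (0.34, SE 0.07, adjusted p = 0.0284, edgeR with Benjamini-Hochberg adjustment). That call was lost with the replicate number as a block (0.0559) and with all 8 libraries in one fit (0.203). The log2 fold change of Epas1 stayed between 0.31 and 0.39 without any single library. Among the remaining endothelial genes of the 10, Aplnr was closest to the profile (r = 0.93), followed by Plvap (0.72), Ednrb (0.57), Vwf (0.47) and Sox17 (0.27), and Car4 showed no relation (-0.0006).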

How the data were processed

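Lung RNA of 4 groups of mice was pooled from 4 mice per group and sequenced as 2 libraries per group on an Illumina HiSeq for 50 cycles. The authors converted and amplified the RNA, aligned single reads to mm10 (GRCm38) with TopHat, and used ShortRead and R programs to add up reads over coding regions, gene by gene. The authors deposited unnormalized read counts of 23469 genes with Entrez identifiers. The submitters' processing notes also name bcl2fastq, CASAVA 1.8 and DESeq. The version of the aligner and the use of strand are not given in the sources used here. Libraries were assigned to groups by their titles.

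Names and positions came from RefSeq (GRCm38.p6), and transcript lengths from GENCODE M21. Each comparison was tested with edgeR 4.0.16 (quasi-likelihood test, R 4.3.3) on its own 4 libraries, with TMM and filterByExpr at a count minimum of 10, and the interaction on all 8 libraries. Benjamini-Hochberg adjustment covered every gene tested, with a threshold of 0.05. The scripts were tested on simulated data. The CPM shown use TMM over all 8 libraries, and a prior count of 2 was added for log2 CPM. PCR copies were counted as separate reads. The 2 libraries of each group differed beyond sampling noise and were kept as 2 values. Stretches of 50 bases from transcripts of the 10 genes were sought in other genes: 0.444% of those of Ednrb were shared, and none of the others. The endothelial genes and gene lists were chosen with earlier results of these data known. Genes named beyond the 10 were Ddah1, at most 4 called genes per endothelial list and comparison by adjusted p, direct ligands and partners, and the 5 most alike genes. Alternatives were RLE size factors, no filter, DESeq2 1.42.0, the replicate number as a block, all 8 libraries in one fit, library sizes from which ribosomal RNA and haemoglobin genes were removed, an offset for gene length (loess, span 0.5) with and without the block, and leaving out each library. A fit that leaves 1 library in a group assumes that it varies like those of the other group.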

Additional observations from a re-analysis of the deposited data

Results flagged for a closer look

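For 3 genes, the change with HDM differed between the genotypes by the interaction test of edgeR with Benjamini-Hochberg adjustment. Epas1, the gene most like the endothelial profile, had an additional log2 change of -0.85 in transgenic mice (SE 0.14). It was chosen for its likeness to that profile over the same libraries, so that its value is a description. It ran from -0.91 to -0.70 over the alternatives and single libraries left out. Flt1 had -1.06 (adjusted p = 0.0254) and Itga3 -1.33 (adjusted p = 0.0113). Both kept their sign without each library, whereas their calls were lost as given in the report. None of the 10 endothelial genes passed this test.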

How the results depend on the processing

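Single libraries decided many calls, and no p-value covers the spread between mice. The direction of the 8 called values of the endothelial genes (3 in wild type and 5 in transgenic mice) was kept in every alternative and without each library. The cause of the changes below was not tested.

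Among all genes in transgenic against wild type mice, DESeq2 gave 223 calls after PBS and 922 after HDM, no filter on low counts gave 306 and 1055, and after HDM all 8 libraries in one fit gave 771 and the offset for gene length 157. For HDM against PBS in wild type mice no filter gave 1588, and for the interaction DESeq2 gave 680 and no filter 675. Of the 10 endothelial genes, 1 was called between the genotypes after PBS with no filter, and 1 after HDM with DESeq2, no filter or all 8 libraries. By the interaction, 1 was called with RLE, without ribosomal RNA and haemoglobin genes, or with the offset for gene length, and 2 with DESeq2 or no filter. The median for HDM in transgenic mice was -0.96 with the offset for gene length, with or without the block.

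Replicate numbers were shared between groups, but libraries of the same number did not deviate together (correlations of deviations of -0.0047, -0.0214, 0.0174 and 0.013 over 15868 genes in the 4 comparisons). With the replicate number as a block, 46 genes in place of 98 passed between the genotypes after PBS and 625 in place of 370 after HDM, 566 with block and length offset, and 1 endothelial gene, Cdh5, passed by the interaction with the block and with block and length offset.

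With single libraries left out, the count of all genes ran from 75 to 432 and from 6 to 1595 between the genotypes after PBS and HDM, from 652 to 1661 and from 277 to 2676 for HDM in wild type and transgenic mice, and from 138 to 723 for the interaction. The count of endothelial genes ran from 0 to 1, 0 to 3, 1 to 4, 1 to 6 and 0 to 3 in the same order, and their median from 0.16 to 0.33, -0.35 to -0.13, -0.61 to -0.40, -1.05 to -0.65 and -0.69 to -0.36.

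Values that had not passed changed sign in these ranges without single libraries. Between the genotypes after PBS these were Vwf (-0.057 to 0.29) and Aplnr (-0.19 to 0.43), and after HDM Tek (-0.33 to 0.14), Car4 (-0.091 to 0.31), Ednrb (-0.10 to 0.96) and Vwf (-0.94 to 0.018). For HDM in wild type mice they were Vwf (-0.032 to 0.32), Sox17 (-0.57 to 0.11), Edn3 (-1.17 to 0.052), Ednra (-0.43 to 0.17), Sox18 (-0.44 to 0.066) and Tie1 (-0.34 to 0.041). For HDM in transgenic mice they were Car4 (-0.33 to 0.086), Vwf (-0.95 to 0.023) and Sox17 (-0.31 to 0.19). For the interaction they were Ednrb (-0.33 to 0.69), Plvap (-0.11 to 0.17) and Sox17 (-0.21 to 0.46). With the offset for gene length, and with that offset and the block, Tek between the genotypes after HDM was 0.0047 and 0.022, Car4 was -0.26 and -0.26, and Plvap by the interaction was -0.19 and -0.19.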
